A study of Homo sapiens with 6 samples.

Results

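The genes described here encode the subunits, assembly chaperones, activators and inhibitor of the proteasome, the protease complex that degrades ubiquitin-tagged proteins. They were taken by symbol: the autosomal protein-coding genes of the RefSeq annotation (GRCh38.p14, the same build as hg38) named PSMA to PSMG followed by a number, without the immunoproteasome genes PSMB8, PSMB9 and PSMB10. This gave 46 genes of 19126. PSMC3IP, a meiotic recombination factor gene, and PSME3IP1, whose product binds an activator subunit, also match these symbols and were kept, so that 44 members are proteasome genes proper. PSMD10 lies on the X chromosome and is given with the related genes.

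The proteasome core is a barrel of alpha and beta rings, and the beta subunits encoded by PSMB5, PSMB6 and PSMB7 carry the protease sites. A regulatory particle caps the barrel: its ATPases (PSMC genes) unfold the substrate, and its other subunits (most PSMD genes) bind ubiquitin chains and remove them. Every cell needs the complex, and its promoters are regarded as constitutively active. H3K27ac, acetylation of lysine 27 of histone H3, marks active promoters and enhancers.

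H3K27ac was profiled in Jurkat and 6T-CEM, both human T-cell acute lymphoblastic leukaemia lines, by CUT&Tag according to the series text. There were 2 Jurkat H3K27ac libraries and 1 from 6T-CEM. The series also holds 3 IgG samples, which were not analysed here. The title names the BET inhibitor GNE-987 and the series text a treatment of 10 nM for 24 h, but treatment is missing from every sample label. Any library may thus come from treated or untreated cells, and by the labels the groups differ in cell line. The peak names begin with Jur in Jurkat replicate 1 and with Jur-NE in replicate 2, a difference the labels do not explain, so that the Jurkat libraries may not share a condition and each is also given alone. Whether the Jurkat replicates grew as separate cultures is not stated either.

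The peak lists on chromosomes 1 to 22 and X held 16159 peaks (Jurkat replicate 1), 32097 (Jurkat replicate 2) and 35154 (6T-CEM), without read counts, so that depth is unknown. Of 7 T-cell marker genes, 6, 7 and 7 held peak bases. CD7 held none in Jurkat replicate 1. Of 5 immature thymocyte markers, 3, 4 and 3 did, with DNTT lacking in 6T-CEM and RAG2 in every library. Among markers of other cells, CSF1R held peak bases in Jurkat replicate 2 and 6T-CEM, while PAX5, EBF1, MS4A1, CD14, MPO, LYZ and the 8 erythroid and non-blood markers held none. With a single 6T-CEM library no test of the lines was possible, and no p-value is given.

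H3K27ac lay at the ends of most proteasome genes in each library. A peak within 1 kb of either annotated gene end was present at 39 of the 46 members in Jurkat replicate 1, at 37 in Jurkat replicate 2 and at 32 in 6T-CEM. Over all autosomal protein-coding genes the shares were 38.5%, 34.7% and 42.3%, against 84.8%, 80.4% and 69.6% of the members. An end peak in all 3 libraries was held by 29 members, or 63.0%, against 26.9% of all genes. The members thus had the fewest end peaks in 6T-CEM, the library in which all genes had the most.

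**Figure D1:**
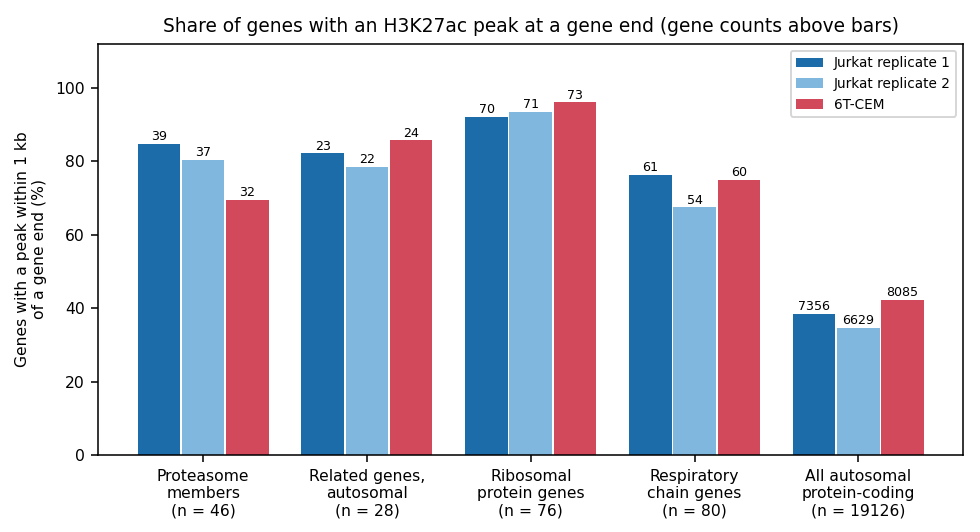
Bars give the percentage of genes with an H3K27ac peak within 1 kb of a gene end, by library, and the numbers above them the count of genes. Proteasome members fall from 39 and 37 in Jurkat to 32 in 6T-CEM, whereas ribosomal protein genes have 70, 71 and 73 and respiratory chain genes 61, 54 and 60.

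The promoters of 6 members are shown, chosen by role or by end-peak fold. PSMB5 encodes the chymotrypsin-like protease subunit. PSMB2, PSMD3 and PSMD8 held the highest end peak of Jurkat replicate 1, Jurkat replicate 2 and 6T-CEM. PSMA8 and PSMB11 are tissue-restricted relatives of the core genes. No member called higher or lower in 6T-CEM, by the call given below, is among them. Each promoter is the 250 bases before the RefSeq start (GRCh38.p14), 5′ to 3′ on the gene's strand, and capitals mark matches to the motifs listed after them.
PSMB5, chr14:23035221-23035470 (minus strand): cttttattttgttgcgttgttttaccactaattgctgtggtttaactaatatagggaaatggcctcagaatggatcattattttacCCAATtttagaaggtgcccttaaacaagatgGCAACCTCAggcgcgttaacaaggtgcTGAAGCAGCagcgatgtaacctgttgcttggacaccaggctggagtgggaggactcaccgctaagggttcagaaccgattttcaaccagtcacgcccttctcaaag
PSMB2, chr1:35641527-35641776 (minus strand): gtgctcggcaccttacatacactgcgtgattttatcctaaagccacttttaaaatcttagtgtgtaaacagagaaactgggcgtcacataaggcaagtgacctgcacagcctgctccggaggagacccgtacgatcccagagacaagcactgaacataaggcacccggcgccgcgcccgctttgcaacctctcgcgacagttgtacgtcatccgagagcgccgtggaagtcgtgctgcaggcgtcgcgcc
PSMD3, chr17:39980557-39980806 (plus strand): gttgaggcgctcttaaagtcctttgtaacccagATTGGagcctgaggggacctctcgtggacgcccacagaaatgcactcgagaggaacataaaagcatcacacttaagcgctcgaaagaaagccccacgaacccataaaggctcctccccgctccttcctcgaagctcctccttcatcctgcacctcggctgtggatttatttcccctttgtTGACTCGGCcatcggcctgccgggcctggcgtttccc
PSMD8, chr19:38374321-38374570 (plus strand): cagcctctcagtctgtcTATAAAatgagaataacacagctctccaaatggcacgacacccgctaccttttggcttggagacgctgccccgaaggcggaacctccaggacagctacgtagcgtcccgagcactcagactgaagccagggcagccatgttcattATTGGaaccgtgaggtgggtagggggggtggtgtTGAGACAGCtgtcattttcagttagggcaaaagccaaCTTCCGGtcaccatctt
PSMA8, chr18:26133619-26133868 (plus strand): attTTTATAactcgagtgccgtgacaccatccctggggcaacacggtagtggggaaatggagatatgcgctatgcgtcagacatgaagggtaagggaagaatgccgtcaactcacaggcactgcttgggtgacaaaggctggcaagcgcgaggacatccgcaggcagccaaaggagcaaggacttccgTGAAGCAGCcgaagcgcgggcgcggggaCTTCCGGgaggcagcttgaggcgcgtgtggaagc
PSMB11, chr14:23041962-23042211 (plus strand): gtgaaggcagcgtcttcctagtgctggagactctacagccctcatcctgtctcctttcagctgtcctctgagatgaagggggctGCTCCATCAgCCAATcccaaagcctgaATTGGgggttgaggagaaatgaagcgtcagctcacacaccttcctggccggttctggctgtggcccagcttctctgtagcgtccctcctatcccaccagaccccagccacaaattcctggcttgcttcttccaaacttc
PSMB5 carries 2 matches to TGANNNNGC, a loose form of the core of the antioxidant response element. NFE2L1, the transcription factor that raises proteasome gene expression when the proteasome is inhibited, binds that element. Binding at these matches was not measured. PSMD3, PSMD8, PSMA8 and PSMB11 carry 1 such match each, so that the tissue-restricted genes hold it too. PSMB2, whose end peak had the highest fold among members in Jurkat replicate 1, has no match to any listed motif in these 250 bases.

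Start windows of 300 bases (250 before and 50 after the outermost RefSeq start) were at hand for 40 members and 15101 autosomal protein-coding genes. On either strand, TGANNNNGC occurred in 25 of the 40 member windows, or 62.5%, against 42.5% of all windows. The ETS motif CCGGAAG was present in 14, or 35.0%, against 14.3%, CCAAT in 19, or 47.5%, against 36.1%, and the SP1 motif GGGCGG in 28, or 70.0%, against 58.7%. The NRF1 motif and the YY1 motif ATGGCGG were each present in 5 member windows (12.5%), against 8.65% and 7.57%. The TATA motif TATAAA, also in 5, compares with 9.83% of all windows, the E-box CACGTG, in 4 (10.0%), with 8.71%, and the cyclic AMP element TGACGTCA, in 0, with 2.62%. No motif contains another, although matches can overlap, and a match is a run of letters and not a measured binding site. Base composition did not set the members apart: the median GC content was 62.2%, against 62.7%, and the median ratio of observed to expected CpG 0.78, against 0.77.

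Where a start was known, the acetylated stretch lay mostly just inside the gene. The highest peak within 1 kb of the outermost start had its summit downstream of it at 30 of 35 members in Jurkat replicate 1 (85.7%), 29 of 33 in replicate 2 (87.9%) and 24 of 29 in 6T-CEM (82.8%). The shares over all genes were 69.4%, 71.7% and 72.7%. Median summit positions were 198, 210 and 171 bp into the gene, against 158, 205 and 198 bp over all genes. Median peak widths were 1436, 1058 and 1003 bp, against 1036, 853 and 979 bp over all genes. PSMC4, a regulatory ATPase gene, had its summits before the start in every library, at −403, −573 and −523 bp. The same held for PSMD1, a scaffold subunit gene, at −10, −22 and −24 bp.

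**Figure D2:**
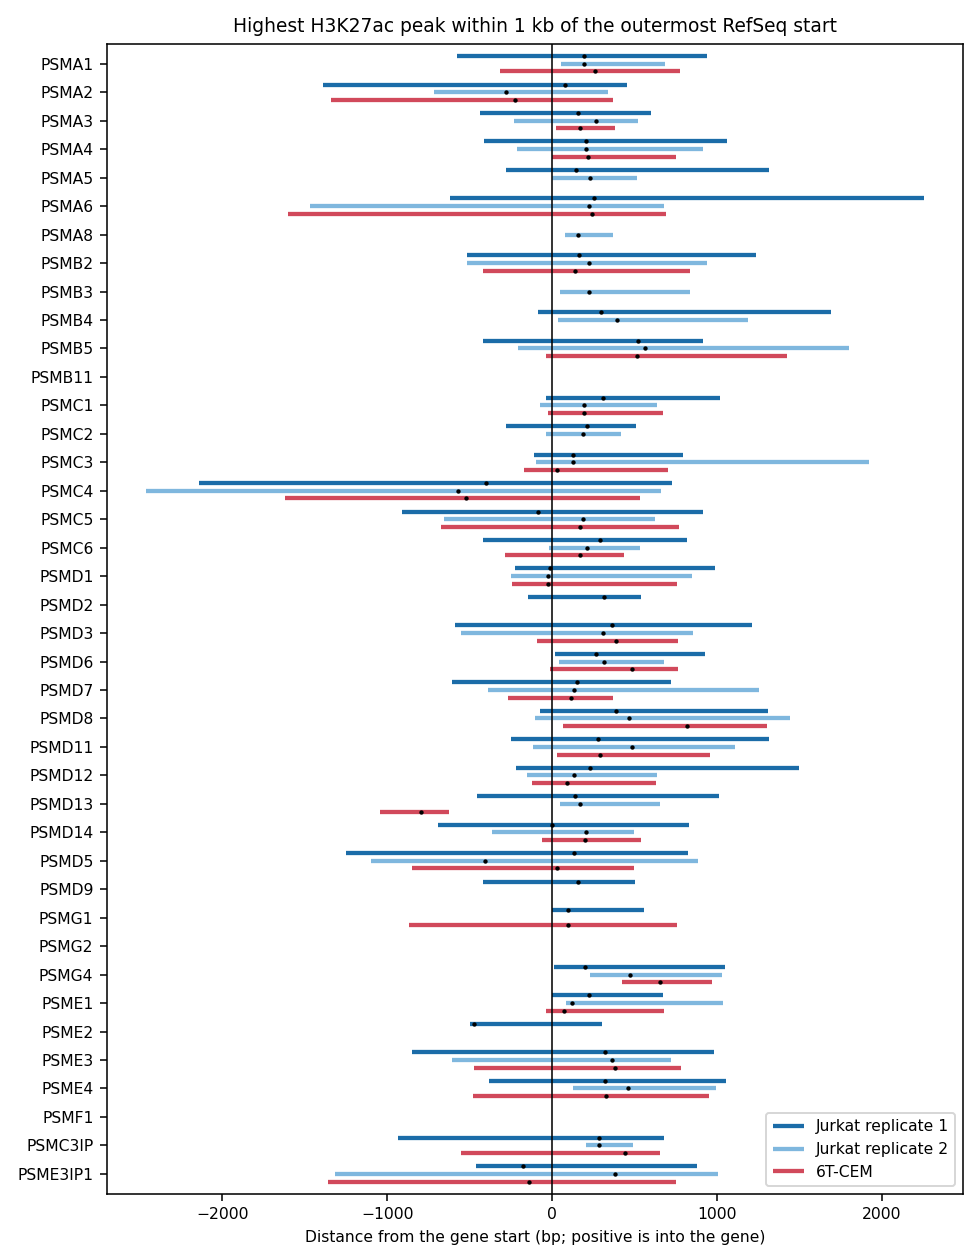
Each line spans the highest H3K27ac peak within 1 kb of the outermost RefSeq start of a member (40 members with a known start), in bp from that start and with positive values into the gene. Black dots mark summits, most of which lie to the right of the start in every library.

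Comparing the lines, covered bases at proteasome genes were lower in 6T-CEM than in Jurkat at most members. Covered bases are those that lie in peaks, counted from 1 kb before to 1 kb after the annotated gene. The median member had 1411 bp in Jurkat replicate 1, 1115 bp in Jurkat replicate 2 and 867 bp in 6T-CEM. Of the 45 members with covered bases in any library, 26 (57.8%) lay below both Jurkat libraries in 6T-CEM and 4 (8.89%) above both. Over the 11515 autosomal genes with covered bases these shares were 16.7% below and 47.3% above. A gene without covered bases in a Jurkat library cannot lie below both, which lowers the share for all genes. Of the 35 members with an end peak in both Jurkat libraries, 22 (62.9%) lay below both, against 29.3% of all 5579 such genes. An end peak in 6T-CEM was present at 29 of these 35 members (82.9%), against 92.1% of all such genes. With the longer lists cut to the 16159 peaks that rank first by −log10 q, 27 of 44 members (61.4%) lay below both, against 21.9% of all genes.

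The median log2 ratio of 6T-CEM to the Jurkat mean, with 500 bp added to each value, was −0.35 for the members and 0.22 for all genes. At equal list length the value for all genes changed sign, to −0.07, and that for the members was −0.45. Against Jurkat replicate 1 alone the members' median was −0.37 and against replicate 2 alone −0.23, so that the sign did not rest on a single Jurkat library. The Jurkat libraries differed from each other as well: the median ratio of replicate 1 to replicate 2 was 0.29 for the members and 0.00 for all genes, and replicate 1 was the higher at 30 of 46 members although its list is the shortest. The difference between the lines was therefore of about the size of the replicate difference at the median, but went the same way against either replicate. Among genes with an end peak in both Jurkat libraries, the median ratio of 6T-CEM to the Jurkat mean was −0.24 for the members and 0.05 for all genes.

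**Figure D3:**
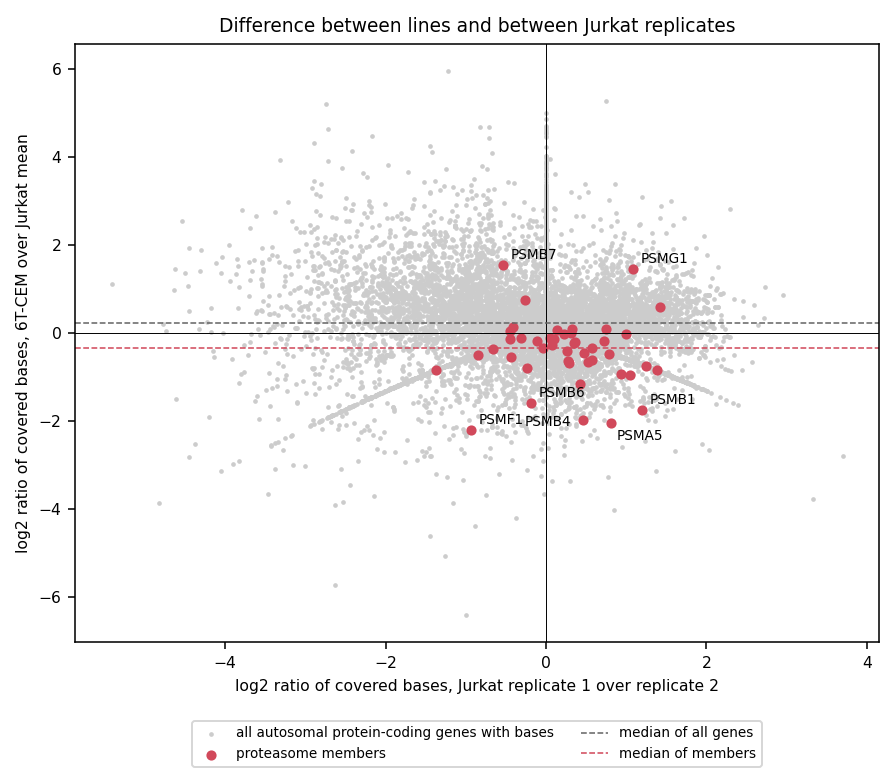
Each point is a gene, by the log2 ratio of covered bases of Jurkat replicate 1 to replicate 2 (horizontal) and of 6T-CEM to the Jurkat mean (vertical), 500 bp added. Red points are the 45 members with covered bases, whose median of −0.35 lies below the 0.22 of all genes, and the 7 labelled members differ from both Jurkat libraries by a log2 ratio of 1 or more.

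Other constitutive gene families are set beside the members. Among ribosomal protein genes, 13 of the 74 with covered bases (17.6%) lay below both Jurkat libraries in 6T-CEM and 36 above both. Of the 70 respiratory chain and ATP synthase genes with covered bases, 16 (22.9%) lay below both and 28 above both. The median log2 ratios were 0.12 and 0.04, against −0.35 for the members, and no gene of either family was called higher or lower. These are descriptions of 3 libraries, and the differences between the families were not tested.

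Near the gene ends, most bases covered in 6T-CEM were covered in Jurkat too. Of the bases covered near member ends in 6T-CEM, 83.3% were also covered in Jurkat replicate 1 and 80.7% in replicate 2, against 60.6% and 57.2% for all genes. In the other direction, 57.0% of the replicate 1 bases and 70.8% of the replicate 2 bases were covered in 6T-CEM, against 68.4% and 75.8% for all genes.

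**Figure D4:**
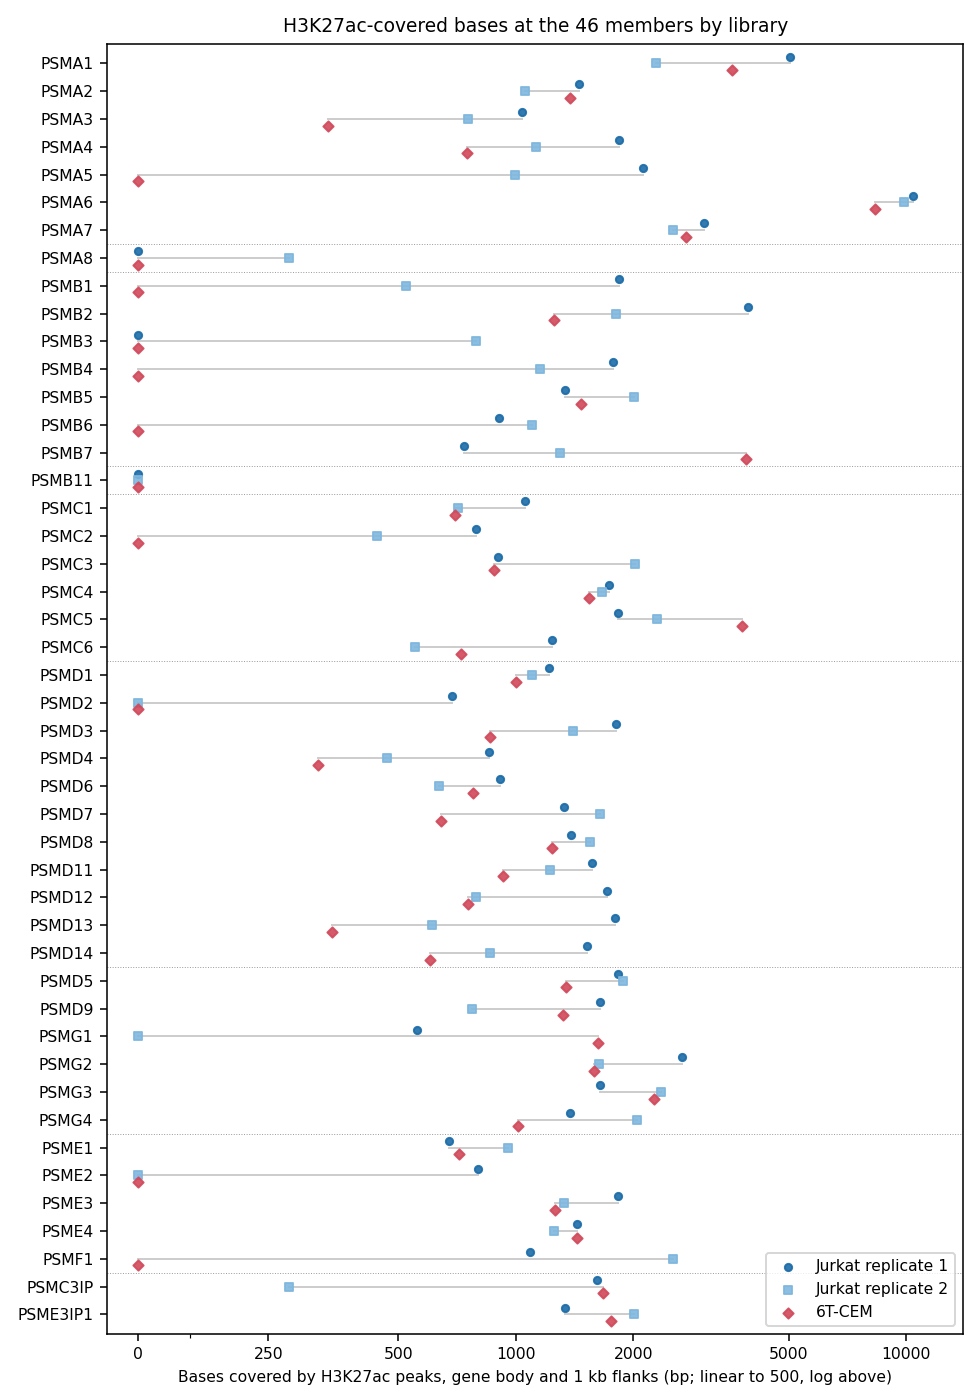
Points give the bases covered by H3K27ac peaks over the gene body and 1 kb flanks of each member in each library (bp, linear to 500 and logarithmic above); grey lines join the lowest and highest library and dotted lines part the functional groups. In 6T-CEM, PSMA5, PSMB1, PSMB4, PSMB6, PSMC2 and PSMF1 sit at 0 with both Jurkat libraries above 0.

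In the beta ring, end peaks were fewer in 6T-CEM than in either Jurkat library, although the share of genes below both Jurkat libraries in covered bases, 4 of 7, was the same as in the alpha ring. End peaks were present at 6 of its 7 genes in Jurkat replicate 1, at 7 in replicate 2 and at 2 in 6T-CEM, namely PSMB2 and PSMB5. PSMB5, which encodes the chymotrypsin-like subunit and the main target of proteasome inhibitor drugs (chr14:23025851-23035220), had 1334, 2007 and 1465 bp in Jurkat replicate 1, replicate 2 and 6T-CEM. Its 6T-CEM value lay between the Jurkat values, and the authors' folds of its end peak were 8.24, 6.70 and 7.08. PSMB6, the caspase-like subunit gene (chr17:4796164-4798495), had 903 and 1098 bp in the Jurkat libraries with folds of 6.74 and 9.07, and no covered bases in 6T-CEM, where the nearest peak was 78.5 kb away. PSMB7, the trypsin-like subunit gene (chr9:124353465-124415442), had 736, 1296 and 3892 bp.

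PSMB7 was the single protease-site gene with more covered bases in 6T-CEM, but these lay elsewhere in the gene. Both Jurkat libraries had a peak over the gene end at 124415442, with folds of 7.96 and 6.03, and 6T-CEM had none there. The 6T-CEM bases came from 7 peaks in the gene body with folds of up to 9.38, of which replicate 2 overlapped 2 and replicate 1 none. Counting only bases within 1 kb of the gene ends turned its log2 ratio against the Jurkat mean from 1.53 to −1.23.

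The structural beta subunit genes were PSMB1, PSMB2, PSMB3 and PSMB4. PSMB1 (chr6:170535120-170553307) had 1842 and 522 bp in Jurkat and PSMB4 (chr1:151399573-151401937) 1776 and 1154 bp, and neither had covered bases in 6T-CEM. The PSMB1 peak of Jurkat replicate 1 had its summit at 170554555, beyond the gene end, and that of replicate 2 at 170553120, inside the gene. PSMB3 had 0, 788 and 0 bp, so that the Jurkat libraries disagreed on it. PSMB2 had 3936, 1810 and 1252 bp, and its end peak in Jurkat replicate 1 had a fold of 16.5, at percentile 99.8 of all end-peak genes of that list. In replicate 2 and 6T-CEM the same gene had folds of 6.07 and 5.53, at percentiles 76.1 and 66.3.

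In the alpha ring, which forms the gated entry to the core, end peaks were present at 6 of 7 genes in each library. PSMA6 had the most covered bases of all members, 10406, 9885 and 8315 bp, from 5, 9 and 11 peaks of which 1, in 6T-CEM, lay at a gene end. Its annotated span begins far before the listed start, and the peaks over the inner start had folds of 7.56, 6.99 and 8.42, while the highest folds, 16.7, 12.6 and 15.3, lay in other body peaks. PSMA1 had 5052, 2285 and 3576 bp, with peaks at an inner start, at folds of 6.53, 3.93 and 6.83. The replicate 2 peak began 53 bp after that start, while the peaks of replicate 1 and 6T-CEM covered it. PSMA7, with 3035, 2524 and 2727 bp, differed little between the libraries, and the folds of its end peak were 4.91, 9.64 and 7.63. SS18L1, a chromatin remodelling gene, lies within 1 kb of it.

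PSMA5 was the alpha gene without covered bases in 6T-CEM. It had 2118 and 995 bp in Jurkat (chr1:109399042-109426448), and the nearest 6T-CEM peak lay 57.5 kb away. PSMA3 had 1034, 754 and 364 bp and PSMA4 1837, 1128 and 750 bp, in both cases lowest in 6T-CEM. PSMA2 had 1455, 1058 and 1373 bp, with the 6T-CEM value inside the Jurkat range.

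The tissue-restricted core genes had few or no called peaks, in lists whose depth is unknown. PSMB11, which encodes the beta subunit of the thymoproteasome of thymic cortical epithelium, had no covered bases in any library, and the nearest peaks lay 6.58, 6.79 and 6.95 kb away, on the side of PSMB5. PSMA8, which encodes the alpha subunit of the testis proteasome, had a single peak of 290 bp in Jurkat replicate 2, with a fold of 4.47, and none in the other libraries. Its start window has a GC content of 61.0% and a CpG ratio of 0.92, while that of PSMB11 has 56.7% and 0.17.

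The regulatory ATPase genes had end peaks at 6 of 6 genes in both Jurkat libraries and at 5 in 6T-CEM. The exception, PSMC2, had 789 and 458 bp in Jurkat with folds of 12.3 and 6.80, and no covered bases in 6T-CEM. PSMC5 was the ATPase gene with more bases in 6T-CEM, 3798 bp against 1828 and 2293 bp. At its start the libraries held peaks of 1828, 1278 and 1445 bp. At its other end 6T-CEM held a 3700 bp peak with a fold of 9.92, which extends into SMARCD2, a chromatin remodelling gene, and Jurkat replicate 2 a peak of 1015 bp with a fold of 4.37. PSMC1 (1052, 710 and 698 bp), PSMC3 (899, 2022 and 878 bp) and PSMC4 (1730, 1659 and 1536 bp) lay narrowly below the lower Jurkat library in 6T-CEM. PSMC6 (1237, 552 and 724 bp) lay between the Jurkat libraries.

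Of the 11 non-ATPase subunit genes of the regulatory particle, 11, 10 and 10 had end peaks, and 9 lay below both Jurkat libraries in covered bases in 6T-CEM. None of the 9 reached a log2 ratio of 1 against both. PSMD3, a lid subunit gene, had 1802, 1404 and 856 bp with folds of 15.4, 13.6 and 7.87, at percentiles 99.5, 99.1 and 88.5 of the end-peak genes of each list. PSMD7, another lid subunit gene, had 1326, 1643 and 643 bp with folds of 14.9, 7.91 and 3.37, at percentiles 99.4, 89.7 and 19.5. PSMD8 was even across the libraries with 1386, 1546 and 1239 bp, and its fold of 9.96 was the highest end-peak fold of any member in 6T-CEM. PSMD14, which encodes the deubiquitinase of the lid, had 1521, 859 and 601 bp, and PSMD4, a ubiquitin receptor gene, 855, 478 and 345 bp. PSMD11 (1562, 1225 and 927 bp) and PSMD12 (1714, 788 and 753 bp), both lid subunit genes, were also lowest in 6T-CEM, while PSMD6 (909, 634 and 776 bp) lay between the Jurkat libraries.

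PSMD2 and PSMD13 differed between the Jurkat libraries. PSMD2, a scaffold subunit gene, had 686 bp in replicate 1 and none in replicate 2 or 6T-CEM. PSMD13, a lid subunit gene whose start lies 45 bp from that of SIRT3 on the opposite strand, had 1793, 610 and 373 bp. In 6T-CEM its end peak stopped 628 bp before the PSMD13 start, on the SIRT3 side, whereas in both Jurkat libraries a peak reached into PSMD13.

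Among the 6 assembly chaperone genes, end peaks were present at 4, 2 and 4. PSMG1, which helps to build the alpha ring, had 559, 0 and 1627 bp (chr21:39174769-39183514), and thus more in 6T-CEM than in either Jurkat library, with summits 96 bp (Jurkat replicate 1) and 99 bp (6T-CEM) into the gene. This call was lost at a distance of 500 bp from the gene end. PSMG2 and PSMG4 had a peak at an inner start in every library, beside other peaks in some, and held 2662, 1632 and 1586 bp and 1372, 2039 and 1010 bp. PSMD9, which chaperones the ATPase ring, had 1643, 771 and 1317 bp, with a peak at its start in Jurkat replicate 1 alone. PSMD5, another ATPase ring chaperone, had 1825, 1886 and 1344 bp, and PSMG3, an alpha ring chaperone gene, 1645, 2351 and 2254 bp.

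Of the activators and the inhibitor, PSMF1 was called lower in 6T-CEM. This gene, which encodes the inhibitor PI31 (chr20:1113263-1172246), had 1084 and 2529 bp in Jurkat, in peaks inside the gene, and no covered bases in 6T-CEM, where the nearest peak lay 128.2 kb away. PSME1 and PSME2 encode the interferon-responsive activator and also belong to antigen presentation. PSME1 had 673, 956 and 716 bp, and PSME2 801, 0 and 0 bp, its single peak lying over a start 265 bp from that of RNF31 on the opposite strand. PSME3 and PSME4, which encode nuclear activators, had a start peak in each library, with 1829, 1327 and 1256 bp and 1436, 1255 and 1430 bp. Of the matches that are not proteasome genes, PSMC3IP had 1612, 290 and 1672 bp and PSME3IP1 1339, 2008 and 1751 bp.

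By the call used for single genes, a log2 ratio of at least 1 against both Jurkat libraries, 5 members were lower in 6T-CEM (PSMA5, PSMB1, PSMB4, PSMB6 and PSMF1) and 2 higher (PSMB7 and PSMG1). This is 11.1% and 4.44% of the 45, where all genes had 2.9% lower and 15% higher. Between the Jurkat libraries, 6 members were higher in replicate 1 and 1 in replicate 2, against 12.1% and 19.6% of all genes. At equal list length 9 of 44 members were lower in 6T-CEM (20.5%, against 8.44% of all genes), and with 2000 bp added in place of 500 bp no member was called in either direction, against 0.382% of all genes lower and 4.86% higher. A gene without covered bases in 6T-CEM can then be called lower only where both Jurkat libraries hold at least 2000 bp. None of the members without covered bases in 6T-CEM did, so that this setting could not call them lower.

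Some members start inside their annotated span, so that a gene end misses their promoter. Counting peaks within 1 kb of a gene end or of a listed inner start, 43, 41 and 33 members held a peak, compared with 40.5%, 36.6% and 44.4% of all genes. The members without such a peak in Jurkat replicate 1 were PSMA8, PSMB3 and PSMB11, and in replicate 2 PSMB11, PSMD2, PSMD9, PSMG1 and PSME2. In 6T-CEM there were 13, which included 5 of the 7 beta ring genes, and PSMA5, PSMC2 and PSMF1.

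End-peak folds, as called by the authors, were not low where a peak was present. Among members with an end peak the median was 6.67 and 5.66 in the Jurkat libraries and 5.53 in 6T-CEM, against 5.73, 4.52 and 4.67 over all end-peak genes of the same lists. Folds are relative to each library's own background and are not set against each other across libraries.

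Related genes outside the symbol rule were read from a list of 31, of which 26, 24 and 26 had an end peak. In 6T-CEM, 14 of the 30 with covered bases exceeded both Jurkat libraries and 12 fell short of both, and the median log2 ratio was 0.01. Of the 27 autosomal ones among them, 48.1% lay above both and 40.7% below both. All autosomal genes with covered bases had 47.3% above and 16.7% below, and a median of 0.22. The share below both thus exceeded that of all genes here too. The immunoproteasome genes, whose products replace the protease-site subunits after interferon, each had most covered bases in 6T-CEM: PSMB8 had 0, 290 and 535 bp, PSMB9 0, 0 and 636 bp, and PSMB10 1605, 2088 and 2213 bp. Of these PSMB9 passed the call against both Jurkat libraries.

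NFE2L1 had 2466, 5577 and 3028 bp, and DDI2, the protease gene that activates its product, 880, 756 and 563 bp. NGLY1, which encodes the deglycosylating enzyme in the same pathway, had 0, 0 and 673 bp, the last inside the gene and not at an end. The assembly factor gene POMP had 1851, 1254 and 1146 bp, lowest in 6T-CEM, and the ubiquitin receptor gene ADRM1 2671, 2973 and 3018 bp, highest there. AKIRIN2, which imports proteasomes into the nucleus, had 901, 927 and 1532 bp. The ubiquitin gene UBB had 953, 851 and 725 bp, and the X-linked chaperone gene PSMD10 had 616, 0 and 0 bp.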

How the data were processed

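H3K27ac was profiled in 2 Jurkat libraries and 1 6T-CEM library. Bowtie2 2.2.5, MACS2 2.2.7 and build hg38 were used, per the submitters' processing notes, without stated options. The use of IgG as control is not given in the sources. Each library has its own deposited list, with the authors' fold (ratio over background), −log10 p, −log10 q, a score derived from the −log10 q, and a summit offset per peak. None was recalculated. Sonication appears in the labels' extraction protocol, CUT&Tag in the series text.

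Other chromosomes than 1 to 22 and X were dropped. A peak was at a gene end when within 1 kb of it. Gene spans, starts and start windows came from RefSeq GRCh38.p14. No start window was at hand for PSMA7, PSMB1, PSMB6, PSMB7, PSMD4 and PSMG3. Ratios used log2 of covered bases plus 500 bp, uncentred. Some genes of the marker and related lists are not reported here. The members and lists were chosen with earlier results of these data known. Named in full were the protease-site genes, members lacking an end peak or called in 6T-CEM, the 3 with most covered bases, the 3 highest folds per library, PSMA8, PSMB11 and the matches that are not proteasome genes. Other members were added after their values were seen. No test was run. Alternatives were a −log10 q of 5 or more, equal list length, distances of 500 bp and 2.5 kb, bases within 1 kb or 25 kb of the ends, 2000 bp added, starts in place of ends, and each Jurkat library left out. Python 3.11.15, NumPy 2.4.6, pandas 2.3.3 and matplotlib 3.10.9 were used.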

Additional observations from a re-analysis of the deposited data

How the results depend on the processing

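The counts of members with an end peak stayed within 1.5 times their values in every alternative run, with 26 to 35 in 6T-CEM. The members' median log2 ratio of 6T-CEM to the Jurkat mean was negative in each alternative: −0.37 to −0.23 with a Jurkat library left out, −0.24 with bases within 1 kb of the ends, −0.13 within 25 kb, −0.21 with 2000 bp added and −0.24 with bases within 1 kb of starts, an alternative chosen after seeing the data. With a Jurkat library left out, 6 to 10 members were called lower in 6T-CEM and 2 to 3 higher. Without Jurkat replicate 1 the share called lower was 13.3%, close to the 9.65% of all genes, and without replicate 2 22.2%, against 8.13%; called higher were 23.3% and 28.0% of all genes. Members called lower numbered 9 at equal list length (20.5%, against 8.44% of all genes), 3 around starts (7.69%, against 2.56%) and 0 with 2000 bp added (against 0.382%). In the last setting, no member without covered bases in 6T-CEM held enough Jurkat bases for the call. Members called higher numbered 1 at 500 bp, within 1 kb of the ends, within 25 kb and around starts. The shares of all genes called higher there were 14.9%, 10.0%, 14.9% and 9.42%. With 2000 bp added no member was called higher, against 4.86% of all genes. Members above both Jurkat libraries numbered 7 within 1 kb of the ends (16.3%, against 42.5% of all genes) and 14 within 25 kb (30.4%, against 50.7%). Replicate 1 was called higher at 11 members at equal list length and 2 within 25 kb, replicate 2 at 5 within 25 kb, and both at 0 with 2000 bp added. Of the Jurkat lists, equal list length shortened that of replicate 2 alone. Replicate calls over all genes were counted in the main setting only (12.1% and 19.6%). These counts are therefore not read as a trait of the members. Within 25 kb the median covered bases were 1878.5, 2250.5 and 2137 bp, and within 1 kb of the ends 823.5 bp in Jurkat replicate 2. PSMB7 reversed to −1.23 within 1 kb of the ends, where its body peaks are not counted. The cause of the other shifts was not tested. No paired analysis was possible because the only groups that share replicate numbers are Jurkat H3K27ac and Jurkat IgG, and the IgG samples were not analysed here. Depth is unknown, so that a missing peak is not evidence of a missing mark.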

Other observations

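Several members without covered bases in 6T-CEM lay in stretches without a 6T-CEM peak that also held other genes. From 170378992 on chromosome 6 to the last peak of any library, 206.1 kb, 6T-CEM had no peak, while the Jurkat libraries had 2 and 3. PSMB1 shares this stretch with TBP, the TATA-binding protein gene, which had 1418, 328 and 0 bp, and PDCD2, with 909, 541 and 0 bp. PSMC2 lies in a stretch of 862.7 kb on chromosome 7 that held 1 peak in each Jurkat library, but sits at its edge, with a 6T-CEM peak 2.61 kb away. PSMF1 lies in 340.8 kb on chromosome 20 that held 1 and 9 Jurkat peaks, PSMA5 in 209.9 kb on chromosome 1 that held 3 and 2, and PSMB6 in 175.5 kb on chromosome 17 that held 4 and 3. PSMB4 lies in 68.4 kb on chromosome 1 that held 1 and 2. Around PSME2, PSMB3, PSMB11, PSMD2 and PSMA8 the stretches without a 6T-CEM peak were 24.2, 34.2, 35.25, 64.4 and 123.8 kb. How usual such lengths are over the genome was not counted. Such stretches were not limited to 6T-CEM: Jurkat replicate 2 had no peak over 157.6 kb around PSMD2 and 186.6 kb around PSMG1, and Jurkat replicate 1 none over 565.4 kb around PSMA8, where 6T-CEM had 8. The neighbouring genes were named after their values were seen.

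Of the 40 members with a known start, 5 (12.5%, against 11.5% of all genes) faced another protein-coding gene on the opposite strand within 1 kb: PSMA2 and MRPL32, PSMD9 and HPD, PSMD13 and SIRT3, PSME2 and RNF31, and PSME4 and ACYP2. ACYP2 had 2179, 1803 and 4689 bp, highest in 6T-CEM, while PSME4 beside it was even.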
